A study of Danio rerio with 2 samples.

Results

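The genes described here are those of oxidative phosphorylation (OXPHOS), taken as the 114 of 36351 gene rows whose symbol starts with ndufa, ndufb, ndufc, ndufs, ndufv, sdh, uqcr, cox4, cox5, cox6, cox7, cox8, atp5 or mt-. Of these, 102 are nuclear genes, which were grouped by symbol. In this way 41 were counted to complex I, 5 to complex II, 8 to complex III, 18 to complex IV and 17 to ATP synthase. A further 7 ndufaf and 4 sdhaf genes encode assembly factors of complexes I and II, and 2 encode inhibitors of ATP synthase. The remaining 12 are mt- genes, transcribed from the mitochondrial genome. No row had the symbol mt-co3, so the mt- sums and shares below leave out that mitochondrial gene. Membership rests on the name of a gene and not on its level, but the group was chosen with earlier results of these data known.

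The respiratory chain of the inner mitochondrial membrane passes electrons from NADH and succinate to oxygen through complexes I to IV and pumps protons as it does so, and ATP synthase uses the resulting gradient to make ATP. All of these complexes except complex II combine proteins imported from the cytosol with proteins made inside the mitochondrion, so nuclear and mitochondrial transcripts supply the same machines from separate genomes. Endothelial cells are known for obtaining much of their ATP from glycolysis, whereas muscle is known for its dense mitochondria.

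The study examined what loss of the Akt kinases does to the vessels of the zebrafish embryo, and compared sorted cells of aktΔ/Δ embryos, which carry CRISPR-induced premature stop alleles of akt1, akt2, akt3a and akt3b, with those of WT embryos, both at 24 hpf. Cells positive for kdrl:mCherry, a red reporter driven by the promoter of an endothelial Vegf receptor gene, were collected by FACS, and 1 droplet library of 3′ ends was made from the cells of each genotype. Every captured mRNA carries a unique molecular identifier (UMI), so the values are counts of captured mRNAs that do not scale with gene length. There were 9464 aktΔ/Δ cells, whose UMIs totalled 91736598 with 8247 in the median cell, and 16400 WT cells, whose UMIs totalled 128759603 with 5930.5 in the median cell.

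The labels call all cells endothelial, but the 25860 cells kept formed 21 clusters, of which 8, with 15353 cells (6523 aktΔ/Δ and 8830 WT), were above the mean of all clusters in both kdrl and cdh5, the gene of a vascular cadherin. These were foxl2b+, venous, ndnf+ arterial, cxcr4a+ arterial and endocardial-like clusters, cycling foxl2b+ and cycling venous clusters, and the low-depth cluster 6. The others included erythroid-like, neutrophil-like and skeletal muscle-like cells, and cluster 3, a low-depth cluster that met the markers of no type. Of the mutated genes, akt2 was at 9.04 CPM in aktΔ/Δ and 13.3 CPM in WT endothelial cells, a log2 ratio of -0.55 (-0.72 to -0.39), and akt3b was at 8.25 CPM and 9.03 CPM, a ratio of -0.13 (-0.32 to 0.06). Over all cells akt3b was higher in aktΔ/Δ, at 5.84 CPM against 4.955 CPM in WT. The counts of akt3a were 43 and 36 UMIs and those of akt1 were 1 and 2 UMIs in endothelial cells. Of the mutated genes, only akt2 was thus lower in aktΔ/Δ endothelial cells beyond counting error, by less than 1.5-fold. Such a difference was not particular to it. The gene kdrl, which was not targeted, was at 282 CPM in aktΔ/Δ and 349 CPM in WT endothelial cells, a log2 ratio of -0.31 (-0.34 to -0.28). Of all genes compared there, 10.0% were past 1.5-fold lower. The counts of akt1 and akt3a were too low to decide whether these genes differed. Those of akt3b, 467 UMIs in aktΔ/Δ and 479 in WT endothelial cells, were enough to show that its mRNA was not strongly reduced there. What these counts mean for the genotype labels was not tested. The paper itself reports strongly reduced mRNA of each akt gene by qRT-PCR of older aktΔ/Δ embryos, and diminished Akt activity by western blot. It also found akt1 highest among the isoforms in sorted endothelial cells, unlike the counts here. The libraries shared 225 cell barcodes. Endothelial cells were deeper in aktΔ/Δ, with a median of 8455 UMIs against 5620 in WT, and held less hemoglobin RNA, 0.257% of UMIs against 0.635%.

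Gene levels are in CPM, that is per 1000000 UMIs of the same group of cells, or as a percent of UMIs, and differences as the log2 ratio of aktΔ/Δ to WT. Values in parentheses are exact 95% intervals, Poisson for levels and binomial for ratios and shares, and they cover counting error only. Since there was 1 library per genotype, no test was made between genotypes, the differences have no replicate check, and a difference between the genotypes cannot be told apart from one between the libraries. Genes with at least 100 UMIs in both libraries together were compared. Those past 1.5-fold in either direction were counted beside the share of all genes that passed the same limit. That share was not matched for level, and counting error takes genes with few UMIs past the limit more often.

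Nuclear OXPHOS transcripts formed nearly the same share of endothelial UMIs in both genotypes, and mt- transcripts a slightly larger one in aktΔ/Δ. The nuclear genes together were at 15735 CPM (15702 to 15768) in aktΔ/Δ and 15993 CPM (15959 to 16027) in WT endothelial cells, a log2 ratio of -0.02 (-0.03 to -0.02), and its sign turned under trimmed-mean (TMM) scaling, which gave 0.07. The nuclear sum was likewise close in the median endothelial cell, at 1.503% of UMIs in aktΔ/Δ and 1.526% in WT. The mt- genes were at 1.07% of UMIs in aktΔ/Δ and 0.962% in WT, a log2 ratio of 0.15 (0.15 to 0.16). In such shares, a change in these genes cannot be told apart from one in all other RNA. Both differences were small beside the range between cell types, which is given first.

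Across cell types, the nuclear genes varied by over 2-fold. Skeletal muscle-like cells had by far the most, 35228 CPM in aktΔ/Δ and 30289 CPM in WT, which is 2.24 and 1.89 times the endothelial level of the same library. Neutrophil-like cells followed with 24142 CPM in aktΔ/Δ and 23799 CPM in WT, and epidermal-like (krt5) cells with 21511 CPM and 21286 CPM. Macrophage-like cells were at a similar level, 23449 CPM in aktΔ/Δ and 23110 CPM in WT, but the aktΔ/Δ library held only 44 of them, so they were left out of the order of 18 classes with at least 50 cells in each library. The muscle class was also small, with 86 aktΔ/Δ and 315 WT cells, and its lead was narrower cell by cell. The median muscle cell had 2.56% of UMIs from nuclear OXPHOS genes in aktΔ/Δ and 2.43% in WT, close to 2.42% and 2.37% in the median neutrophil-like cell. The epidermal-like (krt5) class, with 65 aktΔ/Δ and 176 WT cells, was high in the sum only. Its median cell had 1.37% in aktΔ/Δ and 1.30% in WT, below 1.503% and 1.526% in the median endothelial cell.

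Endothelial classes lay in the middle and at the bottom of that order. Venous cells were highest among them, with 18020 CPM in aktΔ/Δ and 18136 CPM in WT. Next came cycling venous cells, with 16900 CPM and 17042 CPM, and ndnf+ arterial cells, with 16163 CPM and 16904 CPM. The cxcr4a+ arterial class had 13413 CPM in aktΔ/Δ and 13344 CPM in WT, and the endocardial-like class had 13640 CPM and 14132 CPM. The interval of the cxcr4a+ class overlapped that of the epidermal-like (cldni) class in each library, so these neighbours at the bottom of the order were not separable by counting error.

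When single endothelial cells were instead called by markers, artery cells, in which dll4, efnb2a and notch3 were all detected, and vein cells, in which stab2, dab2 and lyve1b were all detected, were close to each other. Nuclear OXPHOS genes were at 15614 CPM in aktΔ/Δ and 16216 CPM in WT artery cells, and at 16155 CPM in aktΔ/Δ and 16508 CPM in WT vein cells. In each library the gap between these called artery and vein cells was narrower than that between the venous cluster and either arterial cluster. The called cells were deep, with medians of 11158 UMIs in aktΔ/Δ and 7392 in WT artery cells and 10505.5 and 6672 in vein cells. All endothelial cells had medians of 8455 and 5620. How depth bears on the gap between artery and vein cells was not tested.

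**Figure D1:**
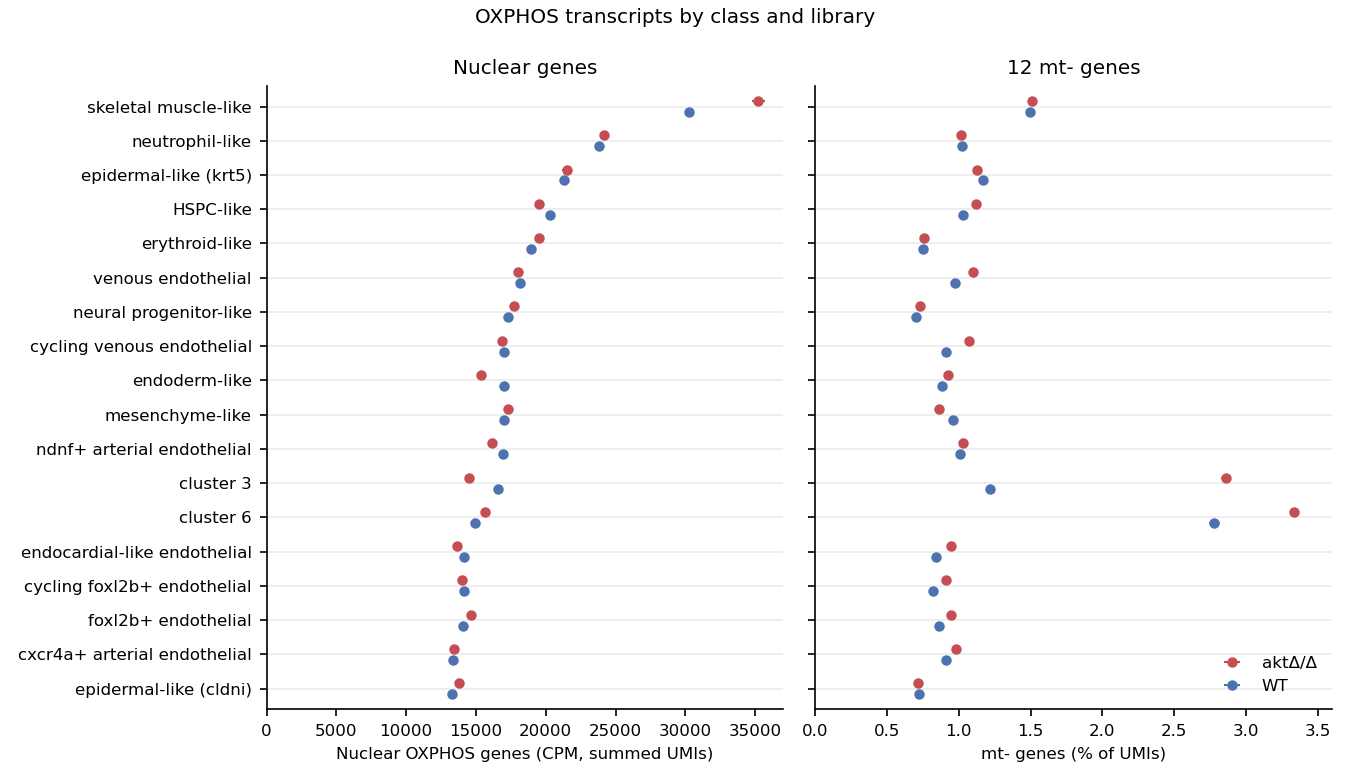
Summed UMIs of the 102 nuclear genes (left, CPM) and the 12 mt- genes (right, percent of all UMIs) in the 18 classes with at least 50 cells in each library, aktΔ/Δ in red and WT in blue, with exact 95% intervals mostly narrower than the points. Skeletal muscle-like cells lead the nuclear sum at 35228 CPM in aktΔ/Δ and 30289 CPM in WT, while clusters 3 and 6 lead the mt- share at 2.86% and 3.34% in aktΔ/Δ.

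The high nuclear sum of muscle came from most of the genes. Of the 93 nuclear genes with enough UMIs, 75 (80.6%) were past 1.5-fold above the median of the other classes in both libraries, against 13.3% of all genes in that class, and the median gene was 2.33 times that level in aktΔ/Δ and 1.84 times in WT. In neutrophil-like cells 33 (35.5%) were past the limit, against 17.7% of all genes. The counts were near their backgrounds in erythroid-like cells, with 13 of 93 genes against 12.4% of all genes, and in endocardial-like cells, where 14 were lower (15.1% against 14.4%). Muscle was higher for each complex. ATP synthase genes summed to 13007 CPM in aktΔ/Δ and 11050 CPM in WT muscle cells, complex I genes to 8996 CPM and 7596 CPM, and complex II genes, which link the chain to the citric acid cycle, to 723 CPM and 532 CPM.

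Erythroid-like cells are a case in which the scale matters, since hemoglobin made up 26.5% of their UMIs in aktΔ/Δ and 25.7% in WT. Their nuclear OXPHOS sum was 19530 CPM in aktΔ/Δ and 18907 CPM in WT, and 26581 CPM and 25453 CPM when hemoglobin was left out of the total. Neutrophil-like cells, treated in the same way, were at 24191 CPM in aktΔ/Δ and 24046 CPM in WT. Erythroid-like cells thus stood below neutrophil-like cells when all UMIs were counted and above them without hemoglobin.

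The mt- genes gave a different order. Skeletal muscle-like cells were again high in the sum, at 1.51% of UMIs in aktΔ/Δ and 1.49% in WT. Their median cell, however, had 0.920% in aktΔ/Δ and 0.958% in WT, against 1.01% and 0.907% in the median endothelial cell. Neutrophil-like cells, at 1.01% and 1.02% in the sum, were near the endothelial level. Erythroid-like cells, at 0.756% and 0.750%, and neural progenitor-like cells, at 0.729% and 0.700%, were below it. The low-depth cluster 6 had the highest share of the 18 classes in both libraries, 3.34% in aktΔ/Δ and 2.78% in WT, with median depths of 1511 and 1087.5 UMIs. The low-depth cluster 3 was next in aktΔ/Δ, at 2.86%, but was below skeletal muscle-like cells in WT, at 1.22%, with median depths of 683 and 878 UMIs. In cluster 6 all 12 mt- genes were past 1.5-fold above the other classes in both libraries, against 22.3% of all genes, whereas only 2 of 93 nuclear genes were.

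Each library gave nearly the same order of classes. Over the 18 classes Spearman's rho between aktΔ/Δ and WT was 0.95 for the nuclear sum and 0.92 for the mt- share. The nuclear and mt- levels followed each other less closely, with rho of 0.27 in aktΔ/Δ and 0.40 in WT, or 0.46 and 0.60 over the 16 classes without clusters 3 and 6. These are descriptions over classes that share a library and its depth.

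Within endothelial cells the nuclear genes spanned a wide range of levels. The median gene was at 98.3 CPM in aktΔ/Δ and 97.7 CPM in WT, 50 genes were at 100 CPM or more in each library, and 18 in aktΔ/Δ and 17 in WT were under 10 CPM. The 5 most abundant genes held 22.1% of the nuclear sum in each library. They were cox7c, a small complex IV subunit, at 1013 CPM in aktΔ/Δ and 1191 CPM in WT, cox6b2, another complex IV subunit, at 854 CPM and 809 CPM, and cox4i1, which encodes the main form of complex IV subunit 4, at 562 CPM and 547 CPM. Next came atp5mc3b, for the c-ring of ATP synthase, at 528 CPM and 504 CPM, and ndufa4l at 521 CPM and 489 CPM. Of these, cox7c alone was lower in aktΔ/Δ, with a log2 ratio of -0.23, and its ratio was below 0 in 19 of 21 clusters (18 under TMM scaling).

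At the other end, 6 nuclear genes had under 100 UMIs in all cells of both libraries: ndufs1 (2 UMIs), ndufa9b (4), ndufa4l2b (7), ndufs8b (13), cox4i1l (55) and sdhda (73). For ndufs1, which encodes the largest core subunit of complex I in other vertebrates, 2 UMIs were in aktΔ/Δ and 0 in WT. Such a count says how often reads were assigned to that row, and how the annotation of the row bears on it was not tested.

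Of the 102 nuclear genes, 92 had at least 100 UMIs in endothelial cells, and 89 of these lay within 1.5-fold between the genotypes. None was past 1.5-fold higher in aktΔ/Δ and 3 were lower (3.26% in either direction), against 15.2% of all 12719 genes compared there, 5.13% higher and 10.0% lower. Under TMM scaling 1 was higher and 3 were lower. The median log2 ratio of the 92 genes was 0.00, with 47 above and 45 below 0, against -0.07 over all genes. The log2 ratios of the middle 80% of these genes ran from -0.25 to 0.14, against -0.59 to 0.36 over all genes. All genes were not matched to these for level, and counting error widens the spread of rarer genes. Whether OXPHOS genes differed less than other genes of the same level was therefore not tested.

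**Figure D2:**
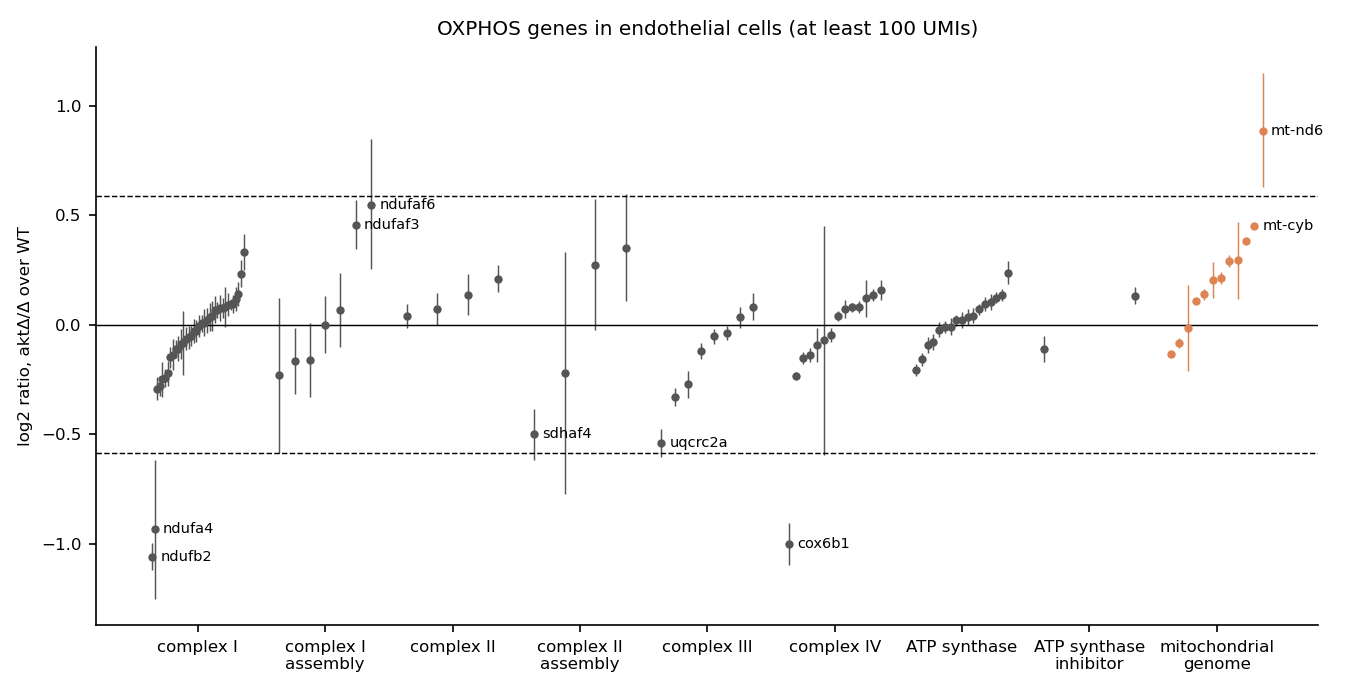
Log2 ratio of aktΔ/Δ to WT in endothelial cells for each OXPHOS gene with at least 100 UMIs, by complex (x axis), nuclear genes in grey and mt- genes in orange, with exact 95% intervals; dashed lines mark 1.5-fold. Most genes lie close to 0, and ndufb2, ndufa4, cox6b1 and mt-nd6 are the 4 outside the lines.

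Complex I, which takes electrons from NADH, summed to 3946 CPM in aktΔ/Δ and 4045 CPM in WT endothelial cells, a log2 ratio of -0.04 (-0.04 to -0.03) that turned to 0.06 under TMM scaling. The sums by complex hold nuclear genes only and follow the symbols, so ndufa4, ndufa4l, ndufa4l2a and ndufa4l2b count with complex I here. The most abundant of these, ndufa4l, was at 521 CPM in aktΔ/Δ and 489 CPM in WT. Of the 41 genes in this group 36 were compared, 17 with ratios above and 19 below 0. The middle 80% lay between -0.26 and 0.11. Those past 1.5-fold were 2, both lower. The larger was ndufb2, for an accessory subunit of the membrane arm, with 55.4 CPM in aktΔ/Δ and 115 CPM in WT (3138 and 6123 UMIs), a log2 ratio of -1.06 (-1.12 to -0.997). It was lower in aktΔ/Δ in all 19 clusters with at least 100 UMIs, from -0.67 in cluster 6 to -1.76 in macrophage-like cells, in endothelial and other cells alike. In erythroid-like cells it had 61.8 CPM in aktΔ/Δ and 134 CPM in WT, and in neutrophil-like cells 50.7 CPM and 137 CPM.

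The other was ndufa4, named for complex I and counted there by its symbol, but now known as a complex IV subunit in mammals. It was a rare transcript of endothelial cells, with 2.33 CPM in aktΔ/Δ and 4.45 CPM in WT (132 and 236 UMIs), a log2 ratio of -0.93 (-1.25 to -0.62), and was lower in all 5 clusters with at least 100 UMIs. Its near relative ndufa4l supplied nearly all the rest of the group, and ndufa4 made up 0.445% of the UMIs of ndufa4, ndufa4l, ndufa4l2a and ndufa4l2b in aktΔ/Δ and 0.902% in WT endothelial cells. In skeletal muscle-like cells that share was larger, 6.73% (4.73 to 9.24) in aktΔ/Δ and 12.6% (11.1 to 14.1) in WT.

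On the other side of complex I, ndufv2, a core iron-sulfur subunit of the NADH-binding arm, had 50.4 CPM in aktΔ/Δ and 40.1 CPM in WT, a log2 ratio of 0.33 (0.25 to 0.41), and was higher in 15 of 16 clusters. Another core iron-sulfur subunit gene, ndufs8a, had 43.6 CPM in aktΔ/Δ and 51.9 CPM in WT, a log2 ratio of -0.25 (-0.33 to -0.17), and was lower in 15 of 15 clusters (13 under TMM scaling). Subunits of the same arm were thus found on both sides of 0.

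The assembly factors of complex I were rare, 85.4 CPM in aktΔ/Δ and 79.1 CPM in WT for all 7 together. Among them were the 2 highest ratios of the nuclear genes. One, ndufaf6, had 4.33 CPM in aktΔ/Δ and 2.96 CPM in WT (245 and 157 UMIs), a log2 ratio of 0.55 (0.25 to 0.85). In neutrophil-like cells it had 17.1 CPM in aktΔ/Δ and 5.45 CPM in WT, a ratio of 1.65 (1.20 to 2.11), and it was higher in each of the 3 clusters with at least 100 UMIs. The other, ndufaf3, had 28.0 CPM in aktΔ/Δ and 20.4 CPM in WT, a log2 ratio of 0.46 (0.34 to 0.57), and was higher in 14 of 15 clusters.

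Complex II, succinate dehydrogenase, is encoded wholly by nuclear genes. It summed to 276 CPM in aktΔ/Δ and 256 CPM in WT, a log2 ratio of 0.11 (0.08 to 0.14), and was higher in 7 of 8 endothelial clusters and 11 of 13 others. The interval was above 0 in only 3 endothelial clusters and 7 others. Under TMM scaling complex II was higher in 8 of 8 and 9 of 13. All 4 of its genes that were compared had ratios above 0 in endothelial cells, from 0.04 for sdhc to 0.21 for sdhb, and none was past 1.5-fold. Its assembly factors diverged. The gene sdhaf4, whose product binds the flavin-carrying subunit, had 18.6 CPM in aktΔ/Δ and 26.3 CPM in WT, a log2 ratio of -0.50 (-0.62 to -0.38), and was lower in 13 of 13 clusters. The gene sdhaf2, whose product helps to attach that flavin, had 5.92 CPM in aktΔ/Δ and 4.64 CPM in WT, a log2 ratio of 0.35 (0.11 to 0.59), and was higher in 8 of 8 clusters. For sdhaf3, which serves the iron-sulfur subunit, values were 3.83 CPM and 3.17 CPM, and the interval of the ratio (-0.02 to 0.57) held 0.

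By its nuclear uqcr genes alone, complex III had the lowest ratio of the 5 complexes. These genes summed to 1203 CPM in aktΔ/Δ and 1309 CPM in WT, a log2 ratio of -0.12 (-0.14 to -0.11). Their sum was lower in 8 of 8 endothelial clusters, with 7 intervals below 0. It leaves out the mitochondrial subunit gene mt-cyb, which was higher in aktΔ/Δ, at 1645 CPM against 1204 CPM in WT. Also left out is cyc1, a nuclear subunit gene outside the name rule, at 173 CPM in aktΔ/Δ and 163 CPM in WT. Under TMM scaling the sum was at -0.03, lower in 5 of 8, so this direction rests on the scale in some clusters. Of the 8 uqcr genes 6 were below 0 and none was past 1.5-fold. The lowest was uqcrc2a, for a core protein of the complex, at 57.9 CPM in aktΔ/Δ and 84.2 CPM in WT, a log2 ratio of -0.54 (-0.61 to -0.48), and it was lower in all 18 clusters with at least 100 UMIs, also under TMM scaling. Its paralog uqcrc2b had 79.7 CPM in aktΔ/Δ and 75.3 CPM in WT. The small subunit genes uqcr10 and uqcrb, named after their values were seen, were next, with log2 ratios of -0.33 and -0.27.

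Complex IV, cytochrome c oxidase, summed to 4746 CPM in aktΔ/Δ and 4882 CPM in WT, a log2 ratio of -0.04 (-0.05 to -0.03) that turned to 0.05 under TMM scaling. Of 14 cox genes compared, 1 was past 1.5-fold. This was cox6b1, for a subunit on the outer face of the complex, with 23.4 CPM in aktΔ/Δ and 46.9 CPM in WT (1326 and 2485 UMIs), a log2 ratio of -1.001 (-1.10 to -0.90). It was lower in all 15 clusters with at least 100 UMIs, from -1.47 in the foxl2b+ class to -0.22 in neuron-like cells. In erythroid-like cells the difference was smaller, with 44.7 CPM in aktΔ/Δ and 55.4 CPM in WT. Its far more abundant paralog cox6b2 was at 854 CPM in aktΔ/Δ and 809 CPM in WT.

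A further pair of complex IV genes, with too few endothelial UMIs for that comparison and singled out after their values were seen, was also rarer in the aktΔ/Δ library. In all cells cox7a1, the heart and skeletal muscle form of its subunit in mammals, had 6 UMIs in aktΔ/Δ and 222 in WT, or 0.0654 CPM and 1.72 CPM, a log2 ratio of -4.72 (-6.18 to -3.58). In endothelial cells it had 0 UMIs in aktΔ/Δ and 25 in WT. With a floor of 3 UMIs for aktΔ/Δ this is 8.90-fold lower, a value that leaves out the counting error of WT. The counts of cox7a1 were also apart in erythroid-like cells, with 1 and 71 UMIs, and in neutrophil-like cells, with 2 and 65. In all cells cox5b2 had 54 UMIs in aktΔ/Δ and 483 in WT, and most of these were in erythroid-like cells, where it was at 2.48 CPM and 10.2 CPM, a log2 ratio of -2.04 (-2.54 to -1.57). Among the 95 nuclear genes compared in cells outside the endothelial clusters, 1 was past 1.5-fold higher (ndufaf6) and 4 were lower (ndufb2, ndufa4, cox7a1 and cox5b2), 5.26% in all, against 16.7% of all genes there, 5.18% higher and 11.5% lower.

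ATP synthase summed to 5158 CPM in aktΔ/Δ and 5106 CPM in WT endothelial cells, a log2 ratio of 0.01 (0.01 to 0.02). Its sum was higher in aktΔ/Δ in 5 of 8 endothelial clusters. Under TMM scaling the ratio was 0.11, and the sum was higher in 8 of 8. None of its 17 genes, all of which were compared, was past 1.5-fold, and their ratios ran from -0.21 to 0.24. The highest was atp5mea, for the e subunit that lies where ATP synthase dimers meet, with 125 CPM in aktΔ/Δ and 106 CPM in WT. The inhibitor genes atp5if1a and atp5if1b, whose products block the enzyme from running backwards, summed to 291 CPM in aktΔ/Δ and 280 CPM in WT.

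The mt- genes were dominated by few transcripts. In endothelial cells mt-co2, mt-co1, mt-atp6 and mt-cyb together made up 81.1% of the UMIs of the 12 mt- genes in aktΔ/Δ and 80.9% in WT. Neighbouring genes of the mitochondrial genome can be cut from 1 transcript, and mt-atp8 and mt-nd4l share theirs with mt-atp6 and mt-nd4, so their UMIs may not be told apart cleanly. Of the 12 mt- genes, 9 had a ratio above 0 in endothelial cells and 1 was past 1.5-fold (8.33%, against 15.2% of all genes), with a median log2 ratio of 0.21.

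The difference was uneven among them. For mt-cyb, the mitochondrial subunit of complex III, the level was 1645 CPM in aktΔ/Δ and 1204 CPM in WT, a log2 ratio of 0.45 (0.44 to 0.46). It was higher in aktΔ/Δ in 21 of 21 clusters, also under TMM scaling, from 0.11 in epidermal-like (krt5) cells, where the interval held 0, to 1.51 in cluster 3. For mt-atp6, in the proton channel of ATP synthase, it was 1679 CPM in aktΔ/Δ and 1288 CPM in WT, a log2 ratio of 0.38, and higher in 20 of 21 clusters (18 under TMM scaling). By contrast mt-co1, the catalytic core of complex IV, was at 1939 CPM in aktΔ/Δ and 2127 CPM in WT, a log2 ratio of -0.13 (-0.15 to -0.12), and was lower in 19 of 21 clusters (17 under TMM scaling). The endothelial ratio of mt-co1 turned to 0.10 when every cell was thinned to 1000 UMIs, which gives shallow cells more weight.

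As a share of mt- UMIs, which does not depend on how large the mt- fraction is, mt-cyb made up 15.4% in aktΔ/Δ and 12.5% in WT endothelial cells, and mt-co1 18.1% and 22.1%. The most abundant of the 12 mt- genes, mt-co2, the subunit that accepts electrons from cytochrome c, made up 31.8% and 32.9%. The complex I genes differed among themselves. The log2 ratios were 0.29 for mt-nd2 (480 CPM in aktΔ/Δ and 393 CPM in WT), 0.21 for mt-nd3 (469 CPM and 405 CPM) and 0.14 for mt-nd4 (538 CPM and 489 CPM). For mt-nd1 (464 CPM and 491 CPM) the ratio was -0.08, which turned to 0.01 under TMM scaling. Of the rare ones, mt-nd5 was at 47.2 CPM in aktΔ/Δ and 41.0 CPM in WT, mt-nd4l at 10.9 CPM and 8.86 CPM, and mt-atp8 at 7.91 CPM and 7.997 CPM.

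The gene past 1.5-fold was mt-nd6, the protein gene of the light strand of the vertebrate mitochondrial genome, which lies opposite to other transcripts. The strand setting of the counting is not given in the sources used here, so its UMIs may include reads from the opposite strand. Its endothelial level was 6.52 CPM in aktΔ/Δ (369 UMIs) and 3.53 CPM in WT (187 UMIs), and the log2 ratio was 0.89 (0.63 to 1.15). In venous cells it was at 6.45 CPM and 3.20 CPM. In erythroid-like cells it was at 3.44 CPM and 4.07 CPM, and the interval of that ratio (-0.71 to 0.21) held 0. At 0.0610% of mt- UMIs in aktΔ/Δ and 0.0367% in WT, it carries almost none of the difference in the mt- sum.

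**Figure D3:**
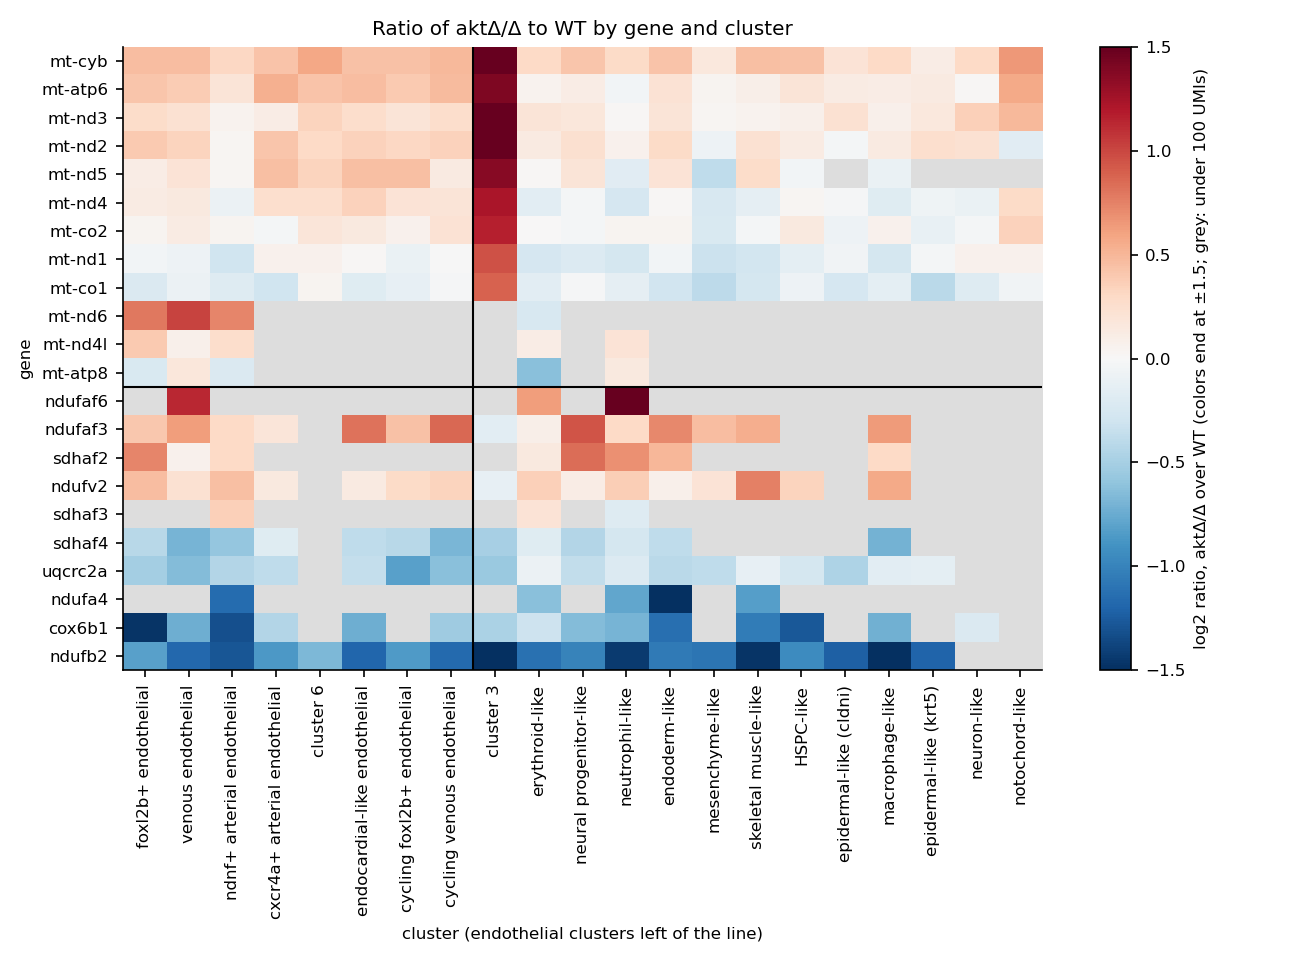
Log2 ratio of aktΔ/Δ to WT by cluster (columns, the 8 endothelial clusters left of the line) for the 12 mt- genes and the 10 nuclear genes with the highest and lowest endothelial ratios (rows); red is higher and blue lower in aktΔ/Δ, and grey marks under 100 UMIs. The ndufb2 row is blue in all 19 clusters measured and the mt-cyb row red in all 21.

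The mt- share moved with the depth of the cells, which differed between the libraries. The share was higher in aktΔ/Δ in 8 of 8 endothelial clusters, from 0.03 in ndnf+ arterial cells to 0.26 in cluster 6 on the log2 scale, and in 9 of 13 others. Among endothelial cells with 1000 to under 2000 UMIs it was 3.70% in aktΔ/Δ and 2.19% in WT, and with 2000 to under 4000 UMIs it was 2.21% and 1.03%. Among cells with 8000 to under 16000 UMIs, where the aktΔ/Δ library had 2900 cells and WT 1998, it was 0.970% and 0.944%. The share was higher in aktΔ/Δ in each of the 6 depth ranges, and the gap was widest between 1000 and 4000 UMIs. Endothelial cells with over 10% mt- UMIs were 0.721% of aktΔ/Δ and 0.215% of WT cells. The ratio was 0.10 in cells with at least 4000 UMIs and 0.42 when all cells were thinned to 1000 UMIs, so its size depends on the weight given to shallow cells. The part of depth in the mt- difference was not tested further.

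**Figure D4:**
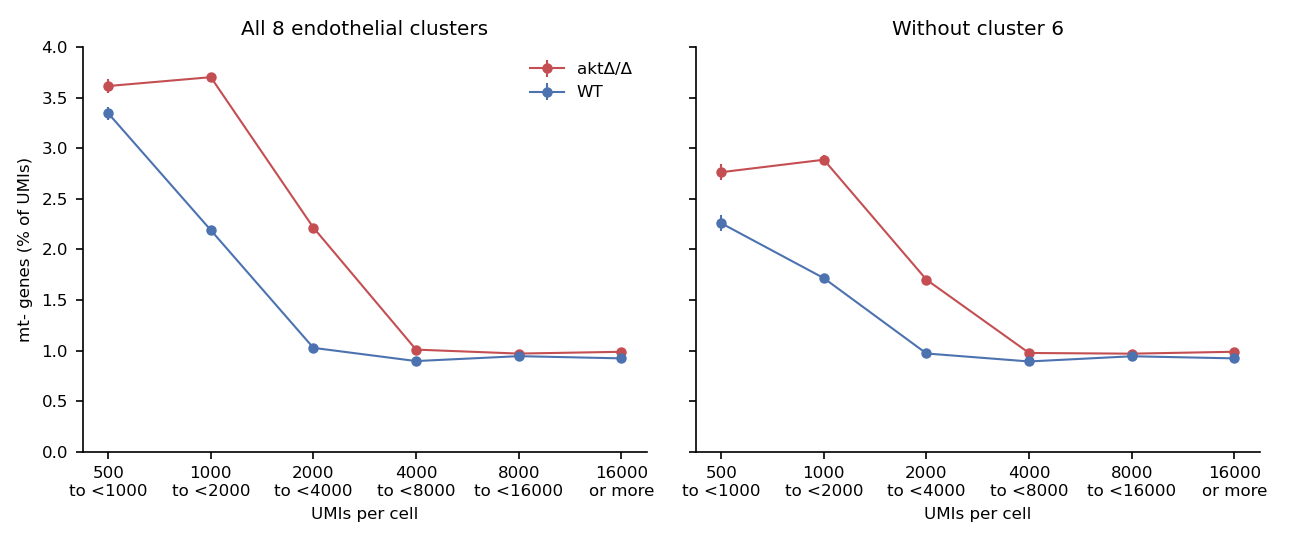
Percent of UMIs from mt- genes (y axis) by UMIs per cell (x axis) in endothelial cells, aktΔ/Δ in red and WT in blue, with exact 95% intervals, for all 8 endothelial clusters (left) and without cluster 6 (right). The lines are far apart at 1000 to under 2000 UMIs, at 3.70% and 2.19%, and close at 8000 to under 16000 UMIs, at 0.970% and 0.944%.

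The nuclear sum did not follow depth in that way. It was 12918 CPM in aktΔ/Δ and 13986 CPM in WT in the shallowest range and 16529 CPM and 17496 CPM in the deepest, so it was lower in shallow cells of both libraries. Compared within the depth ranges, the log2 ratio of the nuclear sum was -0.06 and that of the mt- sum 0.26.

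Several nuclear OXPHOS genes were far above the median class in 1 class. Those described first had the same highest class in both libraries and at least 100 UMIs there in each, a limit on the class in which a gene is high. Without it, rarer genes had larger ratios than most of them, among them cox8b, highest in HSPC-like cells at 52.2 times the median class in aktΔ/Δ and 27.6 times in WT, and ndufa4, highest in skeletal muscle-like cells at 16.4 and 12.9 times. An endothelial case was cox4i2, a second form of complex IV subunit 4 that in mammals is known for its level in lung and its response to low oxygen. In cxcr4a+ arterial cells it was at 181 CPM in aktΔ/Δ and 180 CPM in WT (706 and 709 UMIs), 9.66 and 11.4 times the median class of each library. The endocardial-like class followed with 135 CPM in aktΔ/Δ and 94.8 CPM in WT, and the low-depth cluster 6 with 82.7 CPM and 74.8 CPM. Venous cells had 15.3 CPM in aktΔ/Δ and 15.2 CPM in WT, and ndnf+ arterial cells 23.3 CPM and 17.5 CPM, so the 2 arterial clusters differed. Erythroid-like cells were at 1.45 CPM and 2.74 CPM.

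The main form, cox4i1, was at 460 CPM in aktΔ/Δ and 447 CPM in WT cxcr4a+ arterial cells, against 676 CPM and 648 CPM in venous cells. As a result cox4i2 made up 28.2% (26.42 to 29.98) of the UMIs of cox4i1, cox4i1l and cox4i2 in aktΔ/Δ and 28.7% (26.94 to 30.55) in WT cxcr4a+ arterial cells. Its share was 23.7% (22.0 to 25.4) in aktΔ/Δ and 18.8% (16.9 to 20.9) in WT endocardial-like cells, with intervals apart, and 2.22% and 2.29% in venous cells. Cells with at least 1 UMI of cox4i2 were 54.9% in aktΔ/Δ and 46.8% in WT of the cxcr4a+ class, at median depths of 6166.5 and 4114 UMIs. With every cell thinned to 1000 UMIs these shares were 13.9% and 16.6%. Thinned shares were 10.9% and 8.66% in endocardial-like cells and 7.54% and 9.06% in cluster 6. Unthinned, 54.3% of aktΔ/Δ and 36.2% of WT endocardial-like cells had a UMI of cox4i2. Erythroid-like cells were at 0.489% and 0.315% when thinned. Their unthinned shares were 3.58% and 4.39% at median depths of 29228.5 and 20254 UMIs. When clusters were built without OXPHOS genes, 98.2% of the cells of the cxcr4a+ class fell in 1 cluster. Other cells in that cluster were not counted, so this share cannot decide whether the class rested on cox4i2.

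Other genes peaked in blood cells. For cox6a2, known in mammals as the heart and muscle form of its complex IV subunit, neutrophil-like cells were highest, at 22.0 CPM in aktΔ/Δ and 20.4 CPM in WT (135 and 262 UMIs), and 28.6% and 23.2% of these cells had a UMI (2.95% and 1.07% when thinned to 1000 UMIs, at median depths of 24193 and 17174). No endothelial cell of aktΔ/Δ had one (0 of 6523, which allows a share of up to 0.0460% if 3 cells are taken as the limit, or 0.0565% as the exact 95% bound), and 0.125% of WT endothelial cells did. Even in neutrophil-like cells it made up only 3.51% of the UMIs of cox6a1 and cox6a2 in aktΔ/Δ and 3.50% in WT. The inhibitor gene atp5if1b was also highest in neutrophil-like cells, at 511 CPM in aktΔ/Δ and 509 CPM in WT, and made up 56.0% and 59.0% of both inhibitor genes there, against 28.2% and 31.7% in endothelial cells. The rare ndufaf7, for a methyltransferase that acts on a complex I subunit, was highest in erythroid-like cells, at 13.8 CPM in aktΔ/Δ and 16.8 CPM in WT.

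The rest of the 10 genes with the largest ratio of highest to median class within that limit peaked in skeletal muscle-like cells in both libraries. Their levels there were 811 CPM in aktΔ/Δ and 719 CPM in WT for cox7a2a, 805 CPM and 687 CPM for atp5mc1 (c-ring), 708 CPM and 613 CPM for cox5aa and 645 CPM and 658 CPM for atp5meb. They were 226 CPM and 177 CPM for cox7a2l, which helps to join complexes III and IV, and 209 CPM and 181 CPM for sdhdb, a membrane anchor of complex II. In muscle 99.5% of cells fell in 1 cluster when clustering left out the OXPHOS genes. Other cells in that cluster were again not counted.

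Zebrafish carry duplicates of several of these subunits, and for 15 subunits the shares of paralogs could be compared, with the limit that reads of near-identical copies may have been split between rows. In endothelial cells atp5meb made up 60.7% (59.9 to 61.4) of e subunit UMIs in aktΔ/Δ and 66.0% (65.2 to 66.7) in WT, and in erythroid-like cells 85.6% and 90.1%. It was lower in aktΔ/Δ in 15 of 18 classes, 10 of them with intervals apart. Similarly uqcrc2a made up 42.1% (41.0 to 43.2) of its pair in aktΔ/Δ and 52.8% (51.7 to 53.8) in WT endothelial cells. Its share was lower in aktΔ/Δ in 18 of 18 classes, 8 of them with intervals apart. The share of cox6b1 in its pair was 2.67% in aktΔ/Δ and 5.48% in WT endothelial cells. That share was lower in aktΔ/Δ in 17 of 18 classes, 13 of them with intervals apart. For cox5aa the shares were 57.3% and 58.8%, for ndufab1a 67.3% and 65.5%, and for atp5mc3b, among 3 c-ring genes, 54.9% and 53.8%. A few pairs were used by 1 gene nearly alone: sdhdb held 99.3% of its pair in aktΔ/Δ and 99.8% in WT endothelial cells. In HSPC-like cells the rare cox8b reached 9.31% of its pair in aktΔ/Δ and 9.92% in WT, from 75 and 83 UMIs, against 0.255% and 0.284% in endothelial cells.

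**Figure D5:**
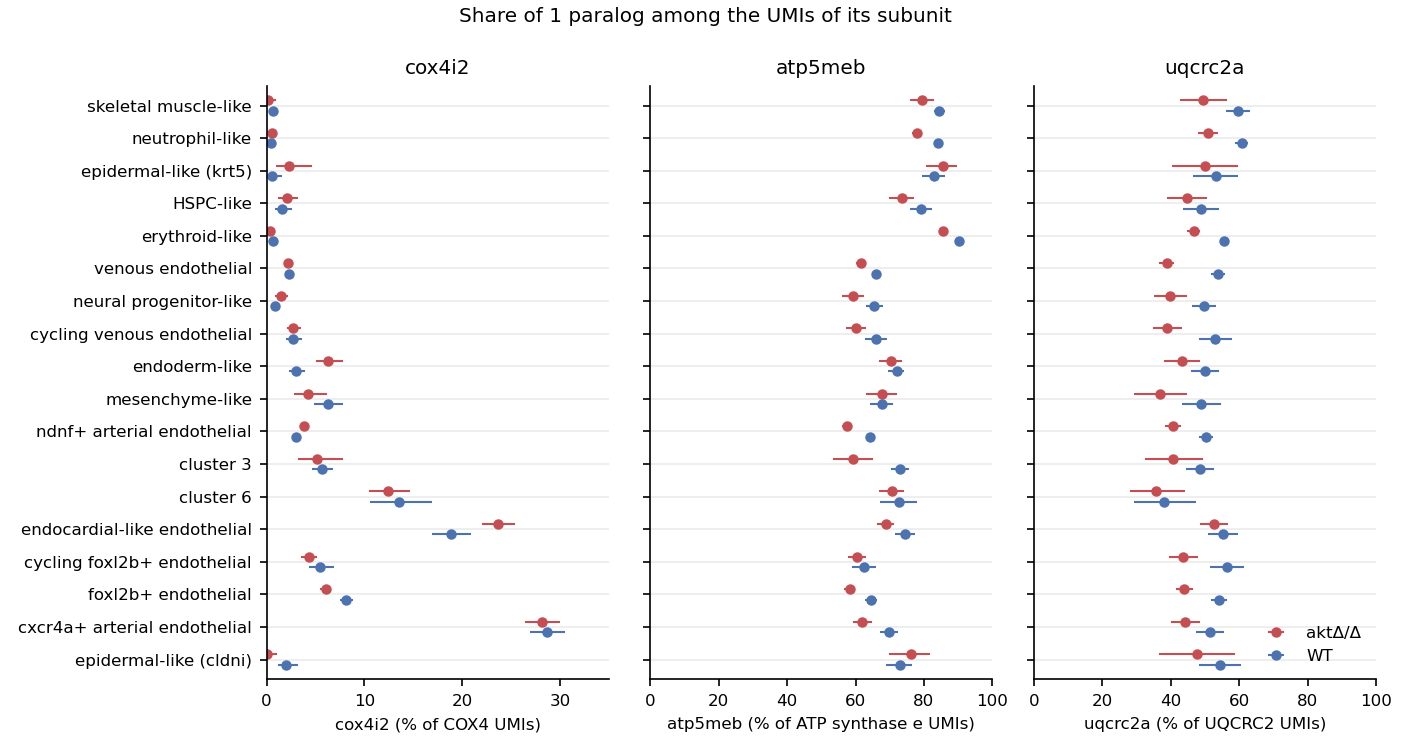
Share of cox4i2 (left), atp5meb (middle) and uqcrc2a (right) among the UMIs of all paralogs of the same subunit (x axes, percent) in 18 classes, aktΔ/Δ in red and WT in blue, with exact 95% intervals. The share of cox4i2 is highest in cxcr4a+ arterial cells, at 28.2% and 28.7%. That of uqcrc2a is lower in aktΔ/Δ in 18 of 18 classes, 8 of them with intervals apart.

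Related genes that the name rule leaves out were compared in endothelial cells through lists written by hand. Of 34 other OXPHOS genes compared (remaining subunits, assembly factors and cytochrome c), none was past 1.5-fold higher and 1 was lower, cox17, which carries copper to complex IV, with a log2 ratio of -0.66. Their median was -0.26, with 9 above and 25 below 0, against -0.07 over all genes and 0.00 for the 92 nuclear genes above. In cells outside the endothelial clusters the median of 35 such genes was 0.01. Of 19 citric acid cycle genes 1 was higher, fh, at 5.44 CPM in aktΔ/Δ and 2.55 CPM in WT, and none was lower, with a median of 0.03. Of 15 genes for upkeep and transcription of mitochondrial DNA none was higher and 1 was lower, tfb2m, and tfam, which packages that DNA, was at 45.2 CPM in aktΔ/Δ and 45.4 CPM in WT. Of 5 genes for carriers of ADP and phosphate or for pores of the outer membrane, 1 was lower. This was the pore gene vdac1, at 72.6 CPM in aktΔ/Δ and 128 CPM in WT. The more abundant pore genes vdac2 and vdac3 had log2 ratios of 0.01 and 0.11, and the carrier genes slc25a5 and slc25a3b of 0.03 and 0.05. Of 18 glycolysis genes none was higher and 4 were lower (aldoab, eno1a, gapdhs and tpi1b), with a median of -0.18. These counts stand beside 5.13% of all genes higher and 10.0% lower, and the genes named from these lists were chosen after their values were seen.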

How the data were processed

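Libraries were made by the authors with a 10x 3′ kit from sorted kdrl:mCherry+ cells pooled from several embryos, 1 library per genotype. The deposited values are raw UMI counts per gene and cell, produced with Cell Ranger 5.0.0 per the labels, with Seurat also listed there. The genome build, the annotation and the strand setting were not given in the sources used here.

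Of 25864 cells with at least 500 UMIs each, 25860 with at least 200 genes were kept, and 26130 genes found in at least 3 cells were used for clustering in Seurat 5.3.0 (R 4.3.3, 2000 variable genes, 30 components, resolution 0.6). Clusters above the cluster mean in both kdrl and cdh5 were taken as endothelial. The other names rest on at least 3 listed markers, so differences from the study's own names may come from this rebuilding. Counts were summed per class and library and divided by all UMIs of the class (Python 3.11.15, numpy 2.4.6, scipy 1.17.1, pandas 2.3.3, matplotlib 3.10.9). Exact 95% intervals cover counting error only. The ratio step was tested on simulated data. Scrublet's automatic threshold marked 1 WT cell and 0 aktΔ/Δ cells, so it had not worked, and doublets were kept.

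The OXPHOS genes and all lists were chosen with earlier results of these data known. Genes named in the text were every mt- gene, the 5 nuclear genes highest in endothelial cells, the 5 highest and 5 lowest ratios with at least 100 UMIs, the 10 with the largest ratio of highest to median class among those with the same highest class in both libraries and at least 100 UMIs there in each, and paralogs of 1 subunit, 56 in all. Others are said to have been chosen later. In the list of citric acid cycle genes, dldh replaced dld after the data were seen, since in zebrafish dld is a Notch ligand gene. Among the OXPHOS genes, 101 of 114 symbols matched RefSeq names. Alternatives were TMM scaling (edgeR 4.0.16), other totals, other cell sets, thinning to 1000 UMIs, and other limits on counts and fold. Removal of the highest Scrublet scores, comparison within 6 depth ranges, cells with at least 4000 UMIs and alternatives for cox4i2 were added after seeing the data.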

Additional observations from a re-analysis of the deposited data

Results flagged for a closer look

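Because there was 1 library per genotype, none of the following differences between cell types was tested. On the log2 scale, the nuclear sum was lower in aktΔ/Δ in cluster 3, at -0.20, with 14492 CPM against 16614 CPM in WT, but higher in skeletal muscle-like cells, at 0.22, with 35228 CPM against 30289 CPM. For muscle the ratio was 0.12 under TMM scaling, 0.092 when cells were thinned to 1000 UMIs and 0.076 between the median cells. Cluster 3 is of low depth and met no type's markers, and the muscle class had 86 aktΔ/Δ cells with a median of 2049.5 UMIs and 315 WT cells with 3600. The mt- sum was lower in aktΔ/Δ in mesenchyme-like cells, at -0.15, with 0.861% of UMIs against 0.957% in WT, but much higher in cluster 3, at 1.23, with 2.86% against 1.22%. In cluster 3 the mt- share of the median cell was 1.09% in aktΔ/Δ and 0.866% in WT, while 9.72% of its aktΔ/Δ cells and 1.61% of its WT cells had over 10% mt- UMIs.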

How the results depend on the processing

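No paired analysis was possible because each genotype had 1 library, and for the same reason no library could be left out in turn. The genes past 1.5-fold in endothelial cells, ndufb2, cox6b1, ndufa4 and mt-nd6, kept their direction in each setting run for them. Smaller differences could change sign, as given below. The log2 ratio of the nuclear sum in endothelial cells, -0.023, was -0.078 in all cells with a UMI of kdrl or cdh5, 0.068 with TMM factors, -0.029 without hemoglobin, -0.035 in cells with at least 4000 UMIs and -0.064 within depth ranges, so its sign is not settled. The ratio of the mt- sum, 0.15, stayed above 0 in every setting run and was 0.11 without the low-depth cluster, 0.14 without cells over 10% mt-, 0.24 with TMM factors, 0.15 without hemoglobin, 0.10 in cells with at least 4000 UMIs, 0.42 when thinned, 0.39 as the mean share over cells and 0.26 within depth ranges. The count of 3 nuclear genes past 1.5-fold was 6 in cells with a UMI of kdrl or cdh5, 6 with a minimum of 20 UMIs, 12 with no minimum, 10 at the lower fold limit tried and 2 at 2-fold. In WT, skeletal muscle-like over endothelial cells, 1.89 for the nuclear sum, was 1.77 when thinned and 2.03 without the 5 most abundant genes, and cxcr4a+ arterial over other endothelial cells, 6.11 for cox4i2, was 5.08 when thinned. Over 13 settings the log2 ratios of the genes past 1.5-fold ran from -1.14 to -0.97 for ndufb2, -1.02 to -0.91 for cox6b1, -1.63 to -0.84 for ndufa4 and 0.69 to 1.31 for mt-nd6. Of the other named genes compared, 4 took the other sign with TMM factors, 11 when thinned and 9 in cells with a UMI of kdrl or cdh5. Thinning left out 389 aktΔ/Δ and 436 WT endothelial cells. The intervals cover counting error only, and the spread between embryos or libraries is unknown.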

Other observations

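The files also hold 4 rows in capitals that the name rule, written for zebrafish symbols, does not take in. In endothelial cells COX5B was at 399 CPM in aktΔ/Δ and 385 CPM in WT, and NDUFB1 at 133 CPM and 156 CPM. The row COX7A2 (1 of many) was at 120 CPM and 135 CPM, and NDUFAF8 at 6.09 CPM and 5.51 CPM. These levels are not in the sums of the nuclear genes.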
